A study of Rattus norvegicus with 21 samples.

Results

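The thioredoxin and peroxiredoxin system was examined in rat insulinoma cells through 10 genes chosen by name: the thioredoxins Txn1 and Txn2, the thioredoxin reductases Txnrd1 and Txnrd2, the peroxiredoxins Prdx1, Prdx2, Prdx3, Prdx5 and Prdx6, and the sulfiredoxin Srxn1. A row with the gene's symbol was found for 9 of the 10 in the deposited mRNA table of 32750 genes, and all 9 passed the filter on low values with 14410 genes in all. Srxn1 was not matched to a row and was not analysed here. The cells were INS-1 832/13, a clonal insulin-secreting line derived from a rat beta cell tumour, seeded in 12-well plates 24 h before exposure. The exposed cells received 1 µM inorganic arsenic (iAs) for 24 h (5 mRNA libraries), and the others were left untreated (4 mRNA libraries). The series also holds 12 small RNA libraries, which were not used here.

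Thioredoxins are small proteins that reduce disulfide bonds in other proteins through a pair of active-site cysteines. Thioredoxin reductases, which are selenoproteins, return thioredoxin to its reduced form with electrons from NADPH. Peroxiredoxins use thioredoxin to remove hydrogen peroxide, and sulfiredoxin repairs peroxiredoxins whose active cysteine has been over-oxidised. Txn1 and Txnrd1 work in the cytosol and Txn2 and Txnrd2 in mitochondria. Txnrd1, Prdx1 and Srxn1 are known targets of NRF2, a transcription factor that responds to oxidants, and trivalent arsenic is known to bind closely spaced thiols such as those of thioredoxin reductase. Rodent beta cells are known for low catalase and glutathione peroxidase activity.

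The mRNA columns summed to 51009800 to 55869159 normalized counts. With the most common low value taken as 1 read, a rough estimate is 44426722 to 65862779 reads per library. These depths are uncertain, since only 25.8% to 60.5% of low values were whole multiples of that value. Pairwise Pearson correlations of the log2 values were 0.974 to 0.989 between libraries of one group (16 pairs, across 14410 genes) and 0.966 to 0.978 between groups (20 pairs). Ins1, the beta cell hormone gene, made up 2.32% to 3.90% of each library's total, and of 8 beta cell markers 2 were higher (Slc2a2 and Chga), 1 was lower (Nkx6-1) and the others were not called. One label names liver as the tissue. Alb, the albumin gene of hepatocytes, was listed at 0 in all libraries except iAs replicate 5 (2.01 normalized counts). Of 8 hepatocyte markers 5 passed the filter, and Alb, Tat and Cps1 did not. Ass1 averaged 972 normalized counts in iAs libraries and 1331 in untreated libraries, Fgb 252 and 637, and Serpina1 274 and 391. The tissue label was not tested further. Hmox1, which encodes heme oxygenase 1 and is widely known to be induced by arsenic, averaged 1739 ± 465 normalized counts in the libraries labelled iAs (SD, n = 5) and 14132 ± 1727 in those labelled untreated (SD, n = 4), and was called lower (log2 difference -3.06, limma adjusted p = 8.5e-07). Every direction below rests on these labels, and whether any label stands on the wrong libraries was not tested. Lane numbers in the labels are 4 for every iAs library and 3 for every untreated one, and this split cannot be told apart from the exposure. Separate cultures are not named for the replicates, and the p-values therefore cover only library-to-library spread, which may be technical. The RNA came from whole wells, so fewer cells of one state and less RNA per cell cannot be told apart.

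Promoter windows were read for the members because some of them carry the letters of the antioxidant response element, the sequence that NRF2 binds. RefSeq windows of 300 bases on build GRCr8, from 250 bases before to 50 after each gene's start, were matched by symbol for 9 of the 10 members, Prdx6 having none, with 10 windows in all since Txnrd1 has 2. The letters TGACNNNGC, searched on both strands, occurred in windows of 3 members, Prdx1, Prdx5 and Txnrd1, and in 12.1% of all 33469 windows. The looser letters TGANNNNGC, which contain every TGACNNNGC match, occurred in those 3 and in Prdx3 and Srxn1, and in 40.5% of all windows. The windows with a TGACNNNGC match follow, 5′ to 3′ on the gene's strand, with the match in capitals. Each match lies on the opposite strand, so the capitals read as its reverse complement.
Prdx1, chr5:135383656-135383955, plus strand: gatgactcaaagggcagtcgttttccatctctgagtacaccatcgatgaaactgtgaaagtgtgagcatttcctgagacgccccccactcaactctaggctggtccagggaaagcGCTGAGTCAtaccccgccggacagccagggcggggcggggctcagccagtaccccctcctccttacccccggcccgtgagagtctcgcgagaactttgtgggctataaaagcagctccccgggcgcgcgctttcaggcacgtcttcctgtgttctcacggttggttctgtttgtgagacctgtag
Prdx5, chr1:213531978-213532277, minus strand: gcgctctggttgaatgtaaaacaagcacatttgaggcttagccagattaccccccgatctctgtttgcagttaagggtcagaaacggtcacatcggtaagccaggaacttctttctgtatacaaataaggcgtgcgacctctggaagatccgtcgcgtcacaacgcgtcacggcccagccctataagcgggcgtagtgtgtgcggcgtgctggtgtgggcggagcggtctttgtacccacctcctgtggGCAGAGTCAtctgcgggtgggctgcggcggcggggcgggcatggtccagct
Txnrd1, chr7:22755855-22756154, minus strand: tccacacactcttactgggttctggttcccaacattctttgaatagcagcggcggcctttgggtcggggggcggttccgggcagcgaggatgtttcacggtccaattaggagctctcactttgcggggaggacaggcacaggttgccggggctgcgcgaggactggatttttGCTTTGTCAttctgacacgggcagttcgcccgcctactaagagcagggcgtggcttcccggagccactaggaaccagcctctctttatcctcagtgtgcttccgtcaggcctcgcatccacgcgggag
Read on its own strand, the match is TGACTCAGC in Prdx1, TGACTCTGC in Prdx5 and TGACAAAGC in Txnrd1. With the gene's first base counted as 0, it covers bases -135 to -127 in Prdx1, -1 to 7 in Prdx5 and -78 to -70 in the shown window of Txnrd1. The other Txnrd1 window holds no such letters. These matches describe the letters of the windows and say nothing of binding in these cells.

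The comparison of libraries labelled iAs with those labelled untreated asked which genes of the system differ after exposure. Of the 9 members tested, 2 were lower in the libraries labelled iAs, Prdx5 and Prdx1, and 0 were higher (limma on log2 values, adjusted p under 0.05 over all 14410 genes). The share called among all genes was 30% (15.1% higher and 14.9% lower), against 22.2% of the members, so the members were not called more often than genes at large. The members' median log2 difference was -0.01, close to the median of -0.0007 over all genes tested, and their differences ran from -0.64 to 0.20. The remaining 7 members were not called, and their limma 95% intervals set how large a change the libraries would allow.

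**Figure D1:**
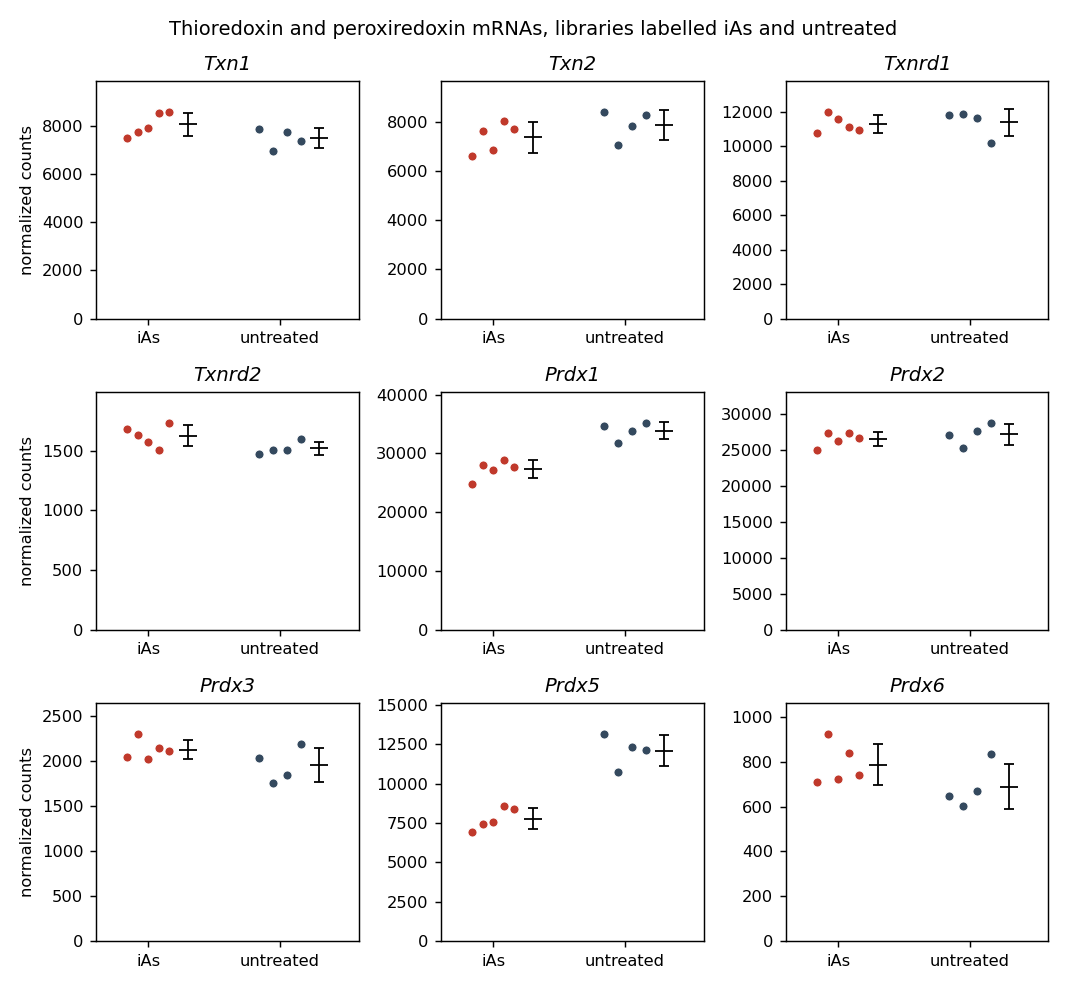
Normalized counts of the 9 measured members in each library (points), with the mean and SD per group (bars), iAs (n = 5) on the left and untreated (n = 4) on the right of each panel. Prdx1 and Prdx5 are the panels in which the groups do not overlap, and vertical axes start at 0 and differ between panels.

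Among the peroxiredoxins, Prdx5 (ENSRNOG00000021125), a peroxidase found in mitochondria, peroxisomes and cytosol, differed most. It had 6959, 7421, 7534, 8590 and 8378 normalized counts in iAs replicates 1 to 5, against 13144, 10748, 12362 and 12132 in untreated replicates 1 to 4. Every iAs library lay below every untreated one, and the highest iAs value was still well under the lowest untreated value. The means were 7776 ± 685 in iAs libraries (SD, n = 5) and 12097 ± 998 in untreated libraries (SD, n = 4). The log2 difference was -0.64 (SE 0.07, limma adjusted p = 9.3e-05), a fold of 0.643 with a 95% interval of 0.574 to 0.719. Of all genes tested, 5.98% differed by this much or further downward. In the RefSeq annotation the gene overlaps Trmt112, which encodes a partner protein of methyltransferases, and the labels do not say whether reads were counted by strand. Trmt112, named here after its values were seen, had 5848 ± 380 normalized counts in iAs libraries (SD, n = 5) and 5490 ± 368 in untreated libraries (SD, n = 4), and was not called (log2 difference 0.09, limma adjusted p = 0.31).

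Prdx1 (ENSRNOG00000017194), the cytosolic peroxiredoxin known as an NRF2 target, was the other member called. It had 24784, 27947, 27244, 28934 and 27719 normalized counts in iAs replicates 1 to 5, against 34691, 31826, 33821 and 35128 in untreated replicates 1 to 4. The groups did not overlap, with 28934 the highest value in iAs libraries and 31826 the lowest in untreated libraries. The means were 27326 ± 1549 in iAs libraries (SD, n = 5) and 33867 ± 1465 in untreated libraries (SD, n = 4), or -0.31 in log2 (SE 0.06, limma adjusted p = 0.0016). That is a fold of 0.806 with a 95% interval of 0.740 to 0.878. Groups without overlap were found for these 2 members and for 25.9% of all genes tested. RefSeq lists 7 pseudogenes and 1 further gene named after Prdx1, none with a row here, so reads shared with such copies make its level uncertain.

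Prdx2, the second cytosolic peroxiredoxin, had 25018, 27329, 26155, 27302 and 26684 normalized counts in iAs replicates 1 to 5, against 27053, 25284, 27597 and 28698 in untreated replicates 1 to 4. The groups overlapped and the log2 difference was -0.03 (SE 0.05, limma adjusted p = 0.66), with a fold interval of 0.902 to 1.06. On the log2 scale Prdx2 had the narrowest interval among the peroxiredoxins measured here, and a change as large as that of Prdx5 lies outside it. The ratio of Prdx1 to Prdx2 within a library, chosen for description after the values were seen, was between -0.01 and 0.08 on the log2 scale in iAs libraries and between 0.29 and 0.36 in untreated libraries.

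Prdx3, the peroxiredoxin of the mitochondrial matrix, had 2045, 2294, 2019, 2146 and 2112 normalized counts in iAs replicates 1 to 5, against 2026, 1757, 1846 and 2184 in untreated replicates 1 to 4. The iAs values lay within or just above the untreated range. The log2 difference was 0.12 (SE 0.07, limma adjusted p = 0.22), with a fold interval of 0.978 to 1.21. Prdx6, which has a single active cysteine, works with glutathione and also has phospholipase activity, had 711, 924, 726, 841 and 741 normalized counts in iAs replicates 1 to 5, against 646, 603, 672 and 837 in untreated replicates 1 to 4. Its groups overlapped through untreated replicate 4, the log2 difference was 0.20 (SE 0.11, limma adjusted p = 0.21), and its fold interval of 0.968 to 1.36 is the widest of the 9. Prdx6 was also the most variable member, with a coefficient of variation of 11.6% in iAs libraries and 14.8% in untreated libraries. Untreated replicate 4 and iAs replicate 2, whose library codes share an ending, were the highest of their groups for both Prdx6 and Prdx3. Among libraries sharing a code ending, every iAs value of both genes lay above every untreated one. This ordering was not tested. The lowest limma adjusted p over 22 alternatives was 0.0504 for Prdx6 and 0.072 for Prdx3, so neither was called.

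**Figure D2:**
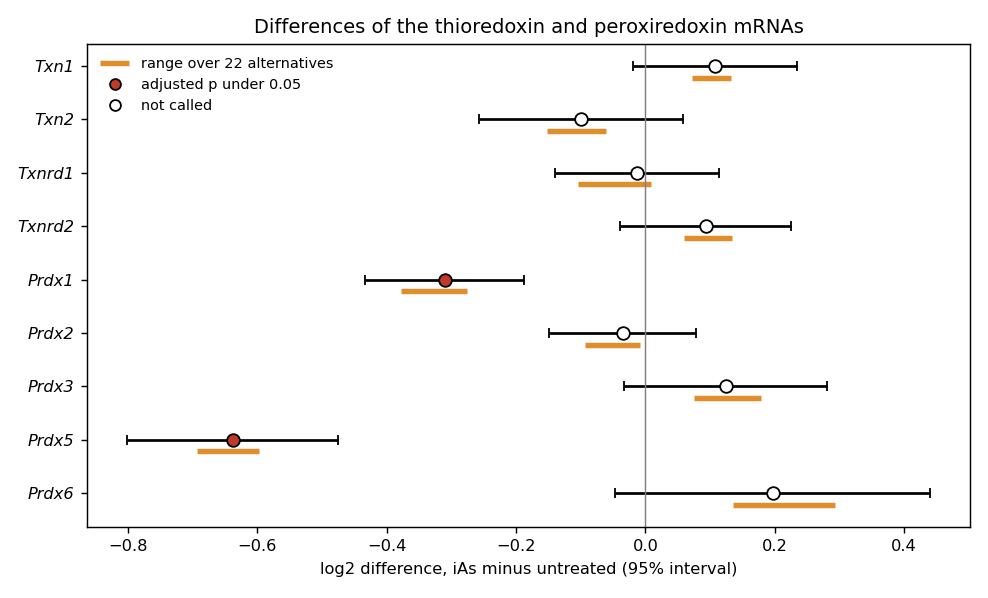
Log2 difference of each measured member, iAs minus untreated, with its limma 95% interval (black, n = 5 and 4), filled where the adjusted p is under 0.05, and the range over 22 other ways of processing or leaving out a library (orange). Prdx5 at -0.64 and Prdx1 at -0.31 stand to the left, and the other intervals all include 0.

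The thioredoxins were not called. Txn1, the cytosolic form, had 7505, 7741, 7915, 8540 and 8563 normalized counts in iAs replicates 1 to 5, against 7861, 6930, 7717 and 7381 in untreated replicates 1 to 4. The log2 difference was 0.11 (SE 0.06, limma adjusted p = 0.19), with a fold interval of 0.987 to 1.18. Txn2, the mitochondrial form, had 6593, 7644, 6837, 8027 and 7720 normalized counts in iAs replicates 1 to 5, against 8397, 7048, 7818 and 8279 in untreated replicates 1 to 4. Its log2 difference was -0.10 (SE 0.07, limma adjusted p = 0.33), with a fold interval of 0.837 to 1.04. The groups overlapped for both genes, and the point estimates had opposite signs.

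The reductases were not called either. Txnrd1 (ENSRNOG00000009088), the cytosolic selenoenzyme and known NRF2 target, had 10762, 11986, 11606, 11119 and 10916 normalized counts in iAs replicates 1 to 5, against 11833, 11866, 11659 and 10195 in untreated replicates 1 to 4. The ranges overlapped almost fully, and the lowest value of all 9 libraries was that of untreated replicate 4. The log2 difference was -0.01 (SE 0.06, limma adjusted p = 0.89), and its fold interval of 0.908 to 1.08 leaves out changes as large as those of Gclm and Nqo1, other known NRF2 targets, at -1.06 and -1.07 in log2 (limma adjusted p = 1.8e-06 and 3.4e-05). Txnrd2, the mitochondrial reductase, had 1678, 1632, 1574, 1505 and 1730 normalized counts in iAs replicates 1 to 5, against 1476, 1506, 1503 and 1600 in untreated replicates 1 to 4. Its groups overlapped, the log2 difference was 0.09 (SE 0.06, limma adjusted p = 0.28) and the fold interval was 0.973 to 1.17.

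**Figure D3:**
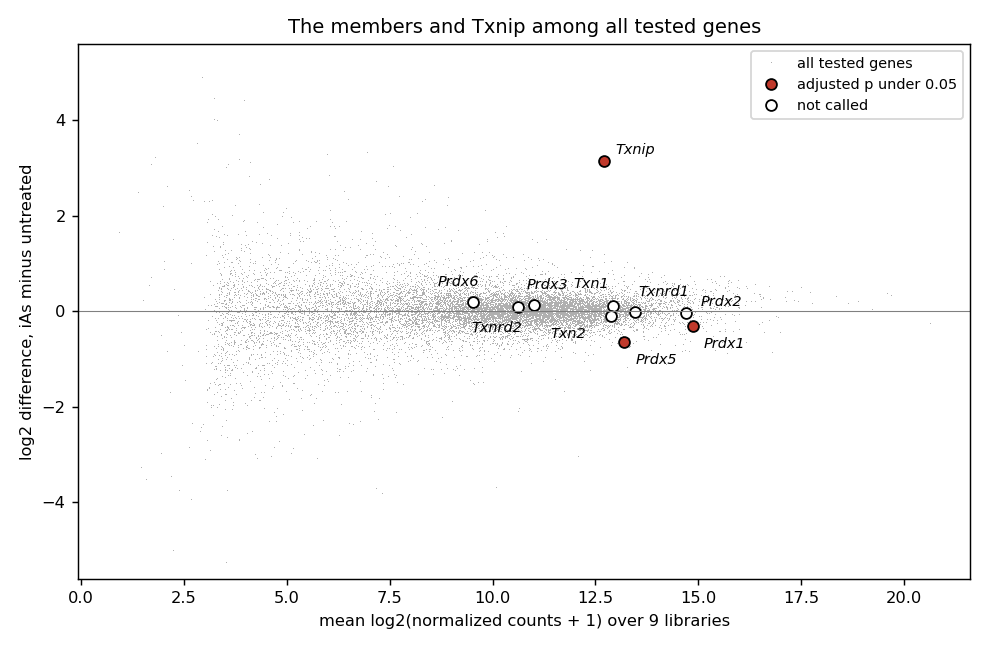
Log2 difference, iAs minus untreated, against the mean log2(normalized counts + 1) over the 9 libraries for all 14410 tested genes (grey points), with the members and Txnip marked and filled where the adjusted p is under 0.05. Txnip stands at 3.14 and Prdx5 at -0.64, while the members not called lie within the bulk of genes of their level.

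Ratios within a library asked whether partners in the system differed in their change, since a factor common to all genes of a library drops out. Whether the deposited values were divided by such a common factor or by factors that differ between genes was not tested. Because the values are not divided by gene length, a ratio's size has no meaning on its own and only its difference between groups is used. The log2 ratio of Txn1 to Txn2 was 0.13 ± 0.08 in iAs libraries (SD, n = 5) and -0.08 ± 0.07 in untreated libraries (SD, n = 4), a difference of 0.21 (exact two-sided permutation p = 0.016, adjusted p = 0.021 over 4 ratios). It was higher in each of the 5 iAs libraries than in any untreated one, although neither gene alone was called. For Prdx1 to Prdx3, cytosolic against mitochondrial peroxiredoxin, the log2 ratio was 3.68 ± 0.08 in iAs libraries (SD, n = 5) and 4.12 ± 0.09 in untreated libraries (SD, n = 4), a difference of -0.43 (exact permutation p = 0.0079, the smallest that 5 against 4 libraries allow, adjusted p = 0.016). All 5 iAs libraries lay below all 4 untreated ones.

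The log2 ratio of the cytosolic to the mitochondrial reductase, Txnrd1 to Txnrd2, was 2.80 ± 0.12 in iAs libraries (SD, n = 5) and 2.90 ± 0.15 in untreated libraries (SD, n = 4), a difference of -0.11 that was within the spread (exact permutation p = 0.25, adjusted p = 0.25). The ratio of Srxn1 to Prdx1, planned as well, could not be formed. Txnip, which encodes a protein that binds and inhibits thioredoxin and is known to respond to glucose, had 17680, 30615, 19064, 12298 and 13448 normalized counts in iAs replicates 1 to 5, against 1885, 2009, 1873 and 2264 in untreated replicates 1 to 4. Txnip rose in every iAs library above every untreated one, by 3.14 on the log2 scale (SE 0.21, limma adjusted p = 2.5e-06). The ratio of Txnip to Txn1, inhibitor to target, was 1.13 ± 0.58 in iAs libraries (SD, n = 5) and -1.90 ± 0.18 in untreated libraries (SD, n = 4), a difference of 3.03 on the log2 scale (exact permutation p = 0.0079, adjusted p = 0.016). With Txn1 alone differing by 0.11, this ratio largely repeats the Txnip difference and is no separate finding. Among iAs libraries the coefficient of variation was 39.1% for Txnip and 5.94% for Txn1.

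**Figure D4:**
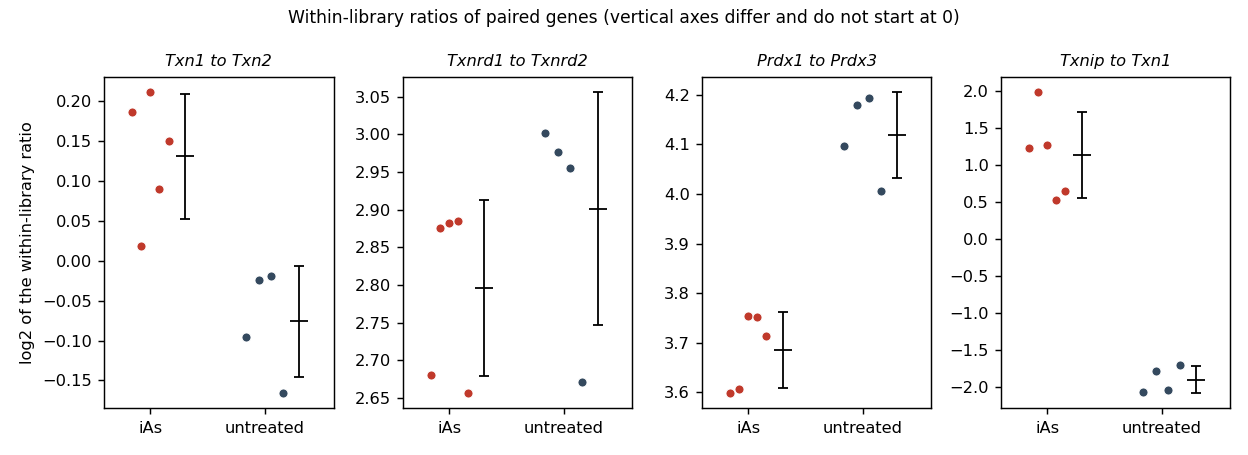
Log2 of 4 within-library ratios in each library (points), with mean and SD per group (bars), iAs (n = 5) left of untreated (n = 4). The groups are apart for Txn1 to Txn2, Prdx1 to Prdx3 and Txnip to Txn1, and overlap for Txnrd1 to Txnrd2, and the vertical axes differ and do not start at 0.

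Beyond the members, 69 related genes in 8 lists were examined, of which 60 were tested. Among them 12 genes were called higher and 11 lower under iAs, 38.3% against 30% of all genes tested, and their median log2 difference was 0.01. Among 18 tested thioredoxin-fold relatives 3 rose and 3 fell (median -0.01). The rises were in the membrane-bound oxidoreductases of the endoplasmic reticulum Tmx1 (0.34, limma adjusted p = 0.0015) and Tmx4 (0.33, adjusted p = 0.0011), and in Prdx4, the peroxiredoxin of the endoplasmic reticulum. Prdx4 had 3255, 3538, 3449, 4593 and 4124 normalized counts in iAs replicates 1 to 5, against 3324, 3001, 3197 and 2943 in untreated replicates 1 to 4, so the groups overlapped at iAs replicate 1. Its log2 difference was 0.27 (SE 0.09, limma adjusted p = 0.045), and this call was lost in 12 of 22 alternatives, among them without each untreated replicate and without iAs replicates 2, 4 and 5 (adjusted p over all alternatives 0.022 to 0.17). The falls were in Tmx2 (-0.30), Txndc15 (-0.29) and Txnrd3 (-0.47), a thioredoxin reductase best known from testis, of which only Tmx2 was called within the libraries of code ending 52 (3 iAs, 2 untreated; adjusted p = 0.18 for Txnrd3 and 0.12 for Txndc15). Txnrd3 also lost its call under the replicate block by number (adjusted p = 0.074). That block called fewer genes at large, 19.2% of those tested against 30% in the main fit, so a call lost under it is not particular to a gene.

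Of 9 genes listed as thioredoxin clients and their partners, 2 rose and 1 fell in mRNA (median 0.10). Msrb3, a methionine sulfoxide reductase, rose to 1261 ± 197 normalized counts in iAs libraries (SD, n = 5), against 536 ± 58.1 in untreated libraries (SD, n = 4), or 1.22 in log2 (SE 0.12, limma adjusted p = 3.8e-05). Rrm2, the small subunit of ribonucleotide reductase, differed by 0.44 (adjusted p = 0.019), while the large subunit Rrm1 was not called at -0.01 (adjusted p = 0.91). The Rrm2 log2 difference was 0.22 within code ending 52 (adjusted p = 0.14), and its call was also lost under the replicate block by number (adjusted p = 0.079) and, at 0.40, when untreated replicate 2 was left out (adjusted p = 0.052). Msrb1, a selenoprotein methionine sulfoxide reductase, differed by -0.26 (adjusted p = 0.014) and was not called under the replicate block by number (adjusted p = 0.056) or with untreated replicate 1 left out (adjusted p = 0.0504). It stands in the list of selenoproteins too. Of the 3 sestrins, which act in peroxide and nutrient signalling, Sesn1 rose by 0.24 (limma adjusted p = 0.0090), and this call was lost under the replicate block by number (adjusted p = 0.065). With iAs replicate 2 left out, under the replicate block by code ending and within code ending 52, 1 sestrin was also called lower.

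The glutathione side held 1 call among 5 genes, the glutaredoxins and glutathione reductase. Gsr, glutathione reductase, fell to 5970 ± 230 normalized counts in iAs libraries (SD, n = 5), against 7473 ± 255 in untreated libraries (SD, n = 4), or -0.32 in log2 (SE 0.05, limma adjusted p = 4.2e-04). Of 10 genes of enzymes that remove peroxide or superoxide, 6 were tested, of which 2 fell and 1 rose in mRNA (median -0.14). Sod1, the cytosolic superoxide dismutase, had 19083, 21885, 21713, 23306 and 22534 normalized counts in iAs replicates 1 to 5, against 33676, 30240, 32627 and 34560 in untreated replicates 1 to 4. The groups did not overlap, and Sod1 fell by 0.60 on the log2 scale (SE 0.06, limma adjusted p = 6.2e-05). Sod2, the mitochondrial form, fell as well (-0.41, adjusted p = 1.1e-04), and Gpx3, the secreted glutathione peroxidase, rose (0.31, adjusted p = 8.0e-04). Catalase (Cat) differed by -0.02 (adjusted p = 0.93), and Gpx1 had at most 21.5 normalized counts in any library. Gpx4, which reduces lipid peroxides, was not called at -0.26 (adjusted p = 0.096), but passed with iAs replicate 4 left out (-0.33, adjusted p = 0.036), after rescaling to equal totals (adjusted p = 0.037) and under the replicate block by number (adjusted p = 0.044).

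Since the thioredoxin reductases are selenoproteins, the genes that make and insert selenocysteine were examined too. Of 8 such genes 1 rose and 1 fell (median 0.04). Sephs2, the enzyme that makes the selenium donor and is itself a selenoprotein, fell to 3284 ± 338 normalized counts in iAs libraries (SD, n = 5), against 4778 ± 224 in untreated libraries (SD, n = 4), or -0.55 in log2 (SE 0.08, limma adjusted p = 2.6e-04). Its paralogue Sephs1, which lacks selenocysteine, rose by 0.29 (adjusted p = 0.0019). Of 11 tested genes of other selenoproteins 3 rose and 4 fell (median 0.06), the smallest adjusted p being those of Selenok (-0.31, adjusted p = 0.0056) and Selenoi (0.34, adjusted p = 0.0076). Within code ending 52 neither was called (adjusted p = 0.055 for Selenok and 0.11 for Selenoi) and 1 gene of the list rose, and without untreated replicate 1 there were 2 that fell. Txnrd1 and Txnrd2 themselves were not called, as given above.

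**Figure D5:**
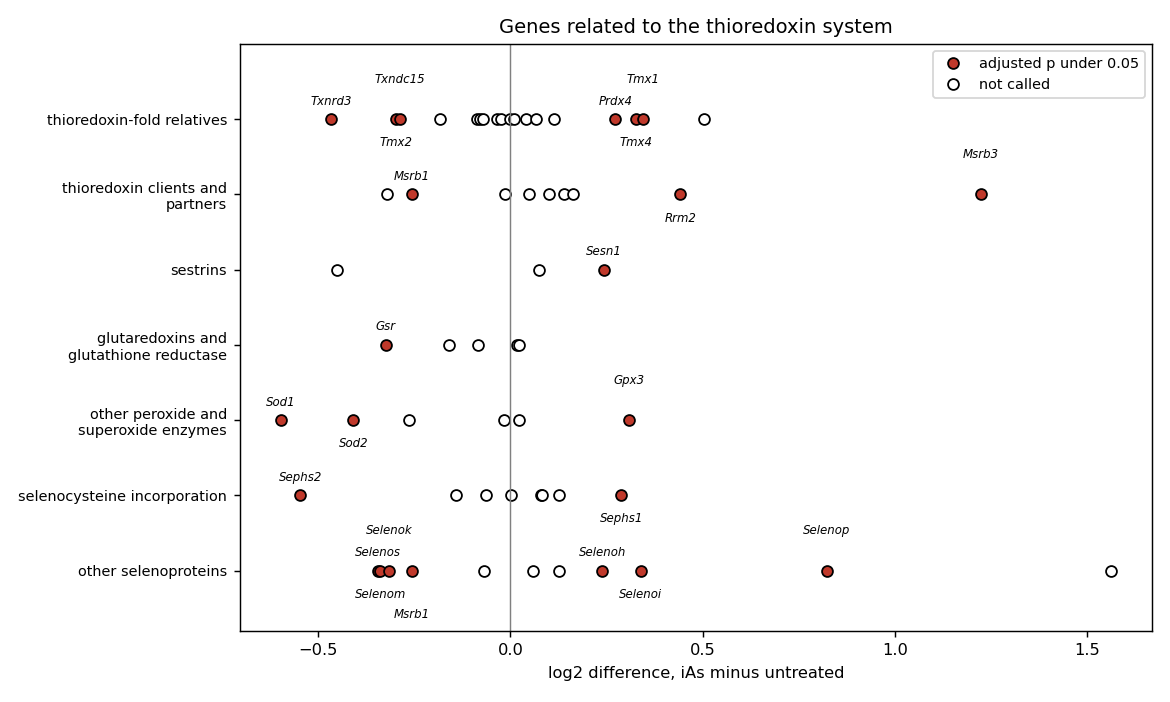
Log2 difference, iAs minus untreated, of the tested genes in 7 related lists, one row per list, filled and named where the limma adjusted p is under 0.05 (n = 5 and 4). Called genes stand on both sides of 0 in the lists of thioredoxin-fold relatives, clients, peroxide and superoxide enzymes, selenocysteine incorporation and selenoproteins, and Txnip at 3.14 is left off this scale.

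The tested genes most like the members with the smallest adjusted p were named by the Pearson correlation of log2 values over the 9 libraries, given as a description since the group difference itself is part of it. For Prdx5 they were Ube2l6 (r = 0.998), Nsfl1c (r = 0.995) and B2m (r = 0.991), and for Prdx1 they were Sod1 (r = 0.991), Ttc1 (r = 0.990) and Sdhaf1 (r = 0.988). For Txn1 they were Ddx39a (r = 0.983), Gadd45gip1 (r = 0.979) and Spcs2 (r = 0.976). Such values were common for the called members, with 656 of 12307 genes over 0.9 for Prdx5 and 602 for Prdx1, against 80 for Txn1.

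Some listed markers of other cell types differed between the groups, where 14.9% of all genes tested were called lower and 15.1% higher. Of 3 tested fibroblast, endothelial and immune markers 3 were lower in the libraries labelled iAs. Col1a1 and Cd74 were low genes, averaging 5.33 and 13.5 normalized counts in iAs libraries and 19.5 and 80.7 in untreated libraries. The summed level of that list was 5782 to 8501 normalized counts in iAs libraries and 9263 to 12881 in untreated libraries. Nearly all of it was Thy1, while Ptprc was listed at 0 in every library. Of 5 tested hepatocyte markers 3 were lower (summed level 1392 to 1807 in iAs libraries and 2278 to 2787 in untreated libraries), and of 6 acinar and duct markers, 2 of them tested, Sox9 was higher and Rbpjl lower (summed level 468 to 638 in iAs libraries and 196 to 306 in untreated libraries), with Cpa1, Cela1 and Prss1 listed at 0 throughout. Of 4 markers of other islet cells 1 was tested, Gcg, which was lower, at a summed level of 52199 to 81071 in iAs libraries and 80243 to 133467 in untreated libraries. Whether the mRNAs of these markers came from other cell types was not tested. Their part in the differences of Prdx1 and Prdx5 was not tested either.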

How the data were processed

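mRNA libraries of rat INS-1 832/13 cells, 5 labelled iAs and 4 labelled untreated, were made with a Kapa mRNA kit per the labels' protocols. The authors deposited a signal per gene, counts divided by DESeq2 normalization factors, as the name of the table in the labels says. The submitters' processing notes name DESeq2, STAR, Salmon and build rn6 without versions or roles. The most common low value, taken as the worth of 1 read, was 0.806 to 1.20 normalized counts per library. Only 25.8% to 60.5% of low values were whole multiples of it within 0.01, so whole reads were not recovered and no count model was fitted.

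Each column was assigned through the code that the sample's description carries. Titles of 4 libraries carry another code of their own group. The groups were compared with limma 3.58.1 (limma-trend) in R 4.3.3 on log2(value + 1), which understates changes of low genes, keeping the genes whose mean reached 10, with Benjamini-Hochberg adjustment over all 14410 genes and a threshold of 0.05. Intervals are limma's, not adjusted for the number of genes. Ratios were tested by exact permutation over samples. Alternatives covered scaling, pseudocount, filter, variance model, replicate blocks, code endings and leaving out each library. Promoter sequences are from RefSeq (GRCr8). The table gave symbols directly, and all columns of the mRNA table were mapped.

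The members, lists and tests were chosen with earlier results of these data known. Named genes were the members, fixed genes of the related lists, the 2 called genes per list with the smallest adjusted p, oxidant response and marker genes, and the genes most like the 3 members with the smallest adjusted p. Tmx2, Txndc15, Txnrd3, Gpx3 and Trmt112 were added to these once their values had been seen. Of the genes on the related lists, 67 of 69 had a row.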

Additional observations from a re-analysis of the deposited data

Results flagged for a closer look

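In 4 of 74 groups of libraries tested, over the 9 members and 28 other genes, the highest or lowest library stood far from the rest, and chance flags about 1 in 20 groups. Txnrd1 was at 10195 normalized counts in untreated replicate 4, against 11659 to 11866 in the other untreated libraries. Catalase (Cat) was at 1814 in the same library, against 2369 to 2452. Gsr was at 7853 in untreated replicate 1, against 7303 to 7390 in the others, and Sephs2 at 4444 in untreated replicate 2, against 4870 to 4923.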

How the results depend on the processing

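The calls of Prdx5 and Prdx1 held in all 22 alternatives that were run, with log2 differences of -0.69 to -0.60 and -0.38 to -0.28 and adjusted p up to 0.0028 and 0.023, and no other member was called in any of them. Within the libraries of code ending 52 alone (3 iAs, 2 untreated) their differences were -0.68 and -0.34. The 22 alternatives are not independent, since they share libraries. Rescaling by median of ratios returned the counts of the main fit, 2181 genes higher and 2140 lower, and the same median log2 difference. It is therefore no separate check. No pairing by the replicate numbers in the titles was seen: deviations from the group means of same-numbered libraries correlated at -0.04 to 0.03. Because titles of 4 libraries carry another code, these numbers may not stand on the libraries meant. Libraries of the 2 groups that share a code ending correlated at -0.06 to 0.17, the highest being iAs replicate 2 with untreated replicate 4. Pairing by code ending was not tested, and the main fit and the permutation tests took no account of the endings. A fit with the replicate block by number called 1351 genes higher and 1410 lower, against 2181 and 2140, and gave Prdx5 -0.67 and Prdx1 -0.32. A replicate block by code ending called 2681 higher and 2597 lower, and gave Prdx5 -0.65 and Prdx1 -0.31. Its share called, 36.6% of genes tested, was the largest of all settings, against 30% in the main fit. Leaving out a library gave 1753 to 2067 genes higher and 1671 to 2009 lower, and rescaling to equal totals 1787 and 2528. Genes close to 0 changed sign without being called: Txnrd1 (-0.0647 to 0.0083 over libraries left out), Rrm1 (-0.0862 to 0.0371), Cat (-0.1193 to 0.0607) and Gpx1 (-0.21 to 0.23). The Gpx1 log2 difference was also -0.48 within code ending 52 and -0.0085 after rescaling to equal totals. Within code ending 52 the smallest exact p is 0.1, so the ratio differences of Txn1 to Txn2 (0.20), Prdx1 to Prdx3 (-0.46) and Txnip to Txn1 (2.86) could not pass there (adjusted p = 0.13), and the first lay between 0.18 and 0.24, the second between -0.47 and -0.41 and the third between 2.82 and 3.18 over libraries left out. Depth limits what can be said of genes as low as Gpx1, at 5.72 to 21.5 normalized counts in iAs libraries and 7.97 to 15.5 in untreated libraries.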
